A study of Homo sapiens with 6 samples.

Results

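The genes described here are 9 genes of the complement system in Calu3 cells, an epithelial cell line from a human lung adenocarcinoma: the components C3, CFB, C1R and C1S, the regulators CLU, CD46, CD55 and CD59, and the receptor CR2. They were taken by gene symbol from a deposited table of 26364 genes, and all 9 were present. The symbols were chosen from measured differences between the same libraries, so the fold changes, intervals and p-values given for these 9 genes describe them and are no independent evidence of a change. The study compared cells given siRNA against BRD8, which encodes a bromodomain subunit of the TIP60 histone acetyltransferase complex, with cells given a negative control siRNA. Each siRNA was used at 20 nmol with the RNAiMax reagent, and each group held 3 single-end RNA-seq libraries. Both groups were the same unmodified line, and 1 siRNA product was used per group, so effects of the BRD8 product other than loss of BRD8 cannot be told apart from loss of BRD8. The labels do not say whether libraries of a group came from separate cultures, so the spread behind the p-values may be technical.

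Complement is a cascade of plasma proteins, several of them proteases, that leads through the cleavage of C3 and C5 to the membrane attack complex. The classical pathway starts with C1q, which carries the proteases C1r and C1s, and these cleave C4 and C2. The alternative pathway builds its own C3-cleaving enzyme from C3b and factor B, and so amplifies deposition on a surface. Cells guard their own membranes with CD46 and CD55, which limit the C3-cleaving enzymes, and with CD59, which blocks the membrane attack complex. Airway epithelium is known to make C3 and factor B itself and to carry all 3 membrane regulators.

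The libraries held 33640814 to 37896467 reads assigned to genes, and 3 reads, taken as the limit that a count of 0 allows, correspond to 2.84 to 3.24 normalized counts. Values below are normalized counts, that is, reads per gene scaled by each library's size factor. Fold changes are differences of log2(normalized count + 1), BRD8 siRNA minus control, tested with limma over 15354 genes and called at a Benjamini-Hochberg adjusted p under 0.05. BRD8 was at 2751, 2928 and 3067 in the control libraries and at 1312, 1084 and 1156 in the BRD8 siRNA libraries, a fall of 1.30 on the log2 scale (SE 0.0904, limma adjusted p = 1.13e-04). Control library 2 stood apart from the other 5 on the second principal component, with a score of -29.96 against -7.08 to 13.79, so values without it are given for the called members CFB, CLU and CR2 and for C1S. All 8 epithelial markers examined were expressed, from ELF3 at a mean of 14789 to KRT8 at 162940. Their summed level was 361460 to 455730 in control libraries and 475620 to 537430 in BRD8 siRNA libraries. This sum was mostly the keratins KRT8, KRT18 and KRT19. CDH1, KRT8 and ELF3 rose, and the other markers were not called, with EPCAM at a log2 fold change of -0.0048 (limma adjusted p = 0.950). The part of this shift in the results below was not tested.

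Among the components, CFB rose 1.57-fold, while C3, C1R and C1S were not called. CFB encodes factor B, the protease subunit of the alternative pathway's C3-cleaving enzyme. Its level was 10152, 12942 and 10801 in control libraries 1 to 3 and 17877, 18019 and 17244 in BRD8 siRNA libraries 1 to 3. The groups did not overlap, and the BRD8 siRNA libraries lay closer together than the controls. The mean went from 11298 ± 1460 to 17713 ± 413 (SD, n = 3 each), a log2 fold change of 0.66 (SE 0.0948, 95% interval 0.44 to 0.87, limma adjusted p = 0.00240). Without control library 2, the highest control, the log2 fold change was 0.76. In the gene models, 45.0% of the exon bases of CFB are shared with a readthrough transcript that joins C2 to CFB, so part of these reads could belong to it.

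The stretches before the start of CFB that held motif matches are shown because this gene is called and its matches stand close together. They come from RefSeq promoter windows on GRCh38.p14, each 250 bases before and 50 bases after an annotated start, and are written 5′ to 3′ on the strand of the gene. Capitals mark the matches.
CFB, ISRE match: acttctgcagTTTCTGTTTCcttgactggc
CFB, kappaB and GAS matches: GGGGCCCTCCcgcttggatgTTCCGGGAA
The upper stretch is chr6:31945945-31945974 on the plus strand, bases -150 to -121 counted from the start, where -1 is the base just before it. It holds an interferon-stimulated response element (ISRE, searched as GAAANNGAAA on both strands) on the reverse strand, a motif found in 3.57% of 35116 promoter windows. The lower stretch is chr6:31945983-31946011, bases -112 to -84. It holds a kappaB match, found in 11.3% of windows, and a gamma-activated site (GAS, searched as TTCNNNGAA), found in 7.66%. In GENCODE v29 both stretches overlap an annotated untranslated region of 1 CFB transcript. A match is a description of the letters and not evidence of binding.

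C3 encodes the central component on which all pathways converge. Its level was 16073, 17688 and 17372 in control libraries and 18908, 18215 and 18146 in BRD8 siRNA libraries. The groups did not overlap. The mean was 17044 ± 856 in control and 18423 ± 422 in BRD8 siRNA libraries (SD, n = 3 each), a log2 fold change of 0.11 (95% interval -0.04 to 0.27, limma adjusted p = 0.297). The upper bound of the interval corresponds to a 1.21-fold level of C3.

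C1R and C1S encode the paired proteases of the C1 complex, and whether their changes differed from each other was not tested. C1S was at 89.1, 117 and 94.5 in control libraries and at 135, 139 and 135 in BRD8 siRNA libraries. Every BRD8 siRNA library lay above every control, with a log2 fold change of 0.45 (SE 0.138, 95% interval 0.14 to 0.77). Its limma adjusted p of 0.0507 lay just above the threshold, edgeR gave an adjusted p of 0.0498, and the adjusted p ranged from 0.00860, without control library 2, to 0.171 over the alternative fits. C1R was at 139, 178 and 99.6 in control libraries and at 134, 125 and 94.7 in BRD8 siRNA libraries. Its groups overlapped, and the log2 fold change was -0.21 (95% interval -0.71 to 0.29, limma adjusted p = 0.552). Between 93 and 165 reads stand behind each of these values, and C1R shares 11.4% of its exon bases with C1RL on the same strand.

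**Figure D1:**
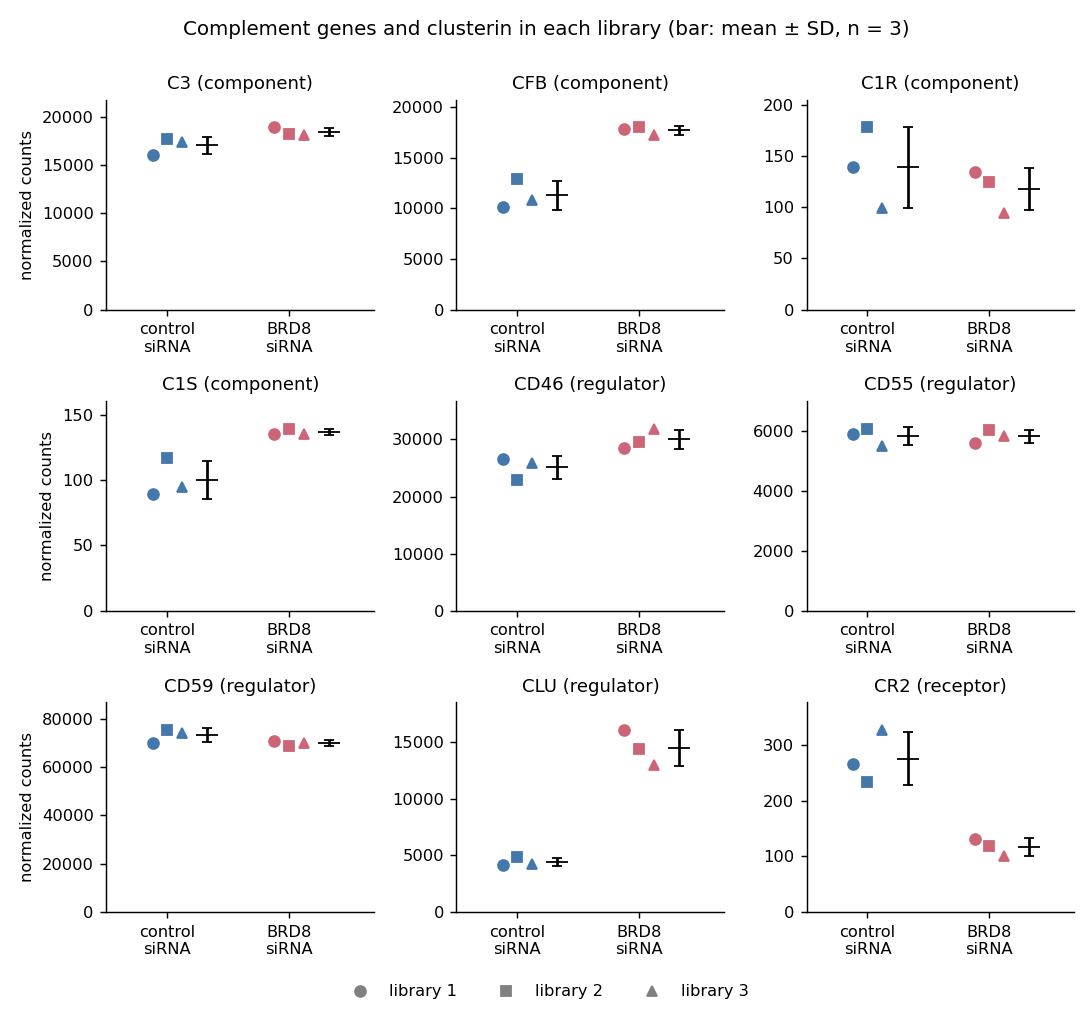
Normalized counts of the 9 genes in each library (vertical axes, starting at 0, with a scale of their own per gene), for control and BRD8 siRNA; points are libraries and bars are the mean ± SD of 3 libraries. CLU and CFB lie higher and CR2 lower in every BRD8 siRNA library, and the groups of C1R, CD55 and CD59 overlap.

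Of the regulators, CLU rose 3.28-fold, the largest rise among the 9 genes, and the membrane regulators CD46, CD55 and CD59 were not called. CLU encodes clusterin, a secreted chaperone that also binds the terminal complement complex and keeps it out of membranes. It was at 4163, 4840 and 4244 in control libraries and at 16099, 14358 and 12965 in BRD8 siRNA libraries. The lowest BRD8 siRNA library was far above the highest control. The mean went from 4416 ± 370 to 14474 ± 1570 (SD, n = 3 each), a log2 fold change of 1.71 (SE 0.0978, 95% interval 1.49 to 1.93, limma adjusted p = 5.84e-05). Without control library 2 it was 1.78.

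CD46 encodes membrane cofactor protein, which helps factor I to cleave C3b and C4b on the cell's own surface. It was at 26624, 22857 and 25873 in control libraries and at 28565, 29570 and 31909 in BRD8 siRNA libraries. The groups did not overlap, and the log2 fold change was 0.26 (SE 0.0840, 95% interval 0.07 to 0.45, limma adjusted p = 0.0624). The call depended on the tool, since the adjusted p was 0.0353 with DESeq2 and 0.0499 with edgeR. In the authors' deposited table it was 0.0355. That table and the DESeq2 fit gave the same log2 fold change, 0.257, and are not separate evidence. The adjusted p ranged from 0.00148 to 0.218 over the alternative fits.

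CD55, decay-accelerating factor, dissociates the C3-cleaving enzymes. Its levels of 5917, 6087 and 5502 in control libraries and 5605, 6046 and 5842 in BRD8 siRNA libraries overlapped. The 95% interval of its log2 fold change, -0.16 to 0.16, corresponds to 0.893 to 1.12 times the control level (limma adjusted p = 0.998). CD59, which stops the assembly of the membrane attack complex, was at 70184, 75499 and 74252 in control libraries and at 70957, 68586 and 70047 in BRD8 siRNA libraries. These groups also overlapped, and the 95% interval of the log2 fold change ran from -0.23 to 0.09 (limma adjusted p = 0.544).

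CR2 fell, and no other gene of the 9 was called lower. It encodes complement receptor type 2, or CD21, which binds C3d and is best known on B cells and follicular dendritic cells. Its level was 266, 234 and 328 in control libraries and 132, 119 and 101 in BRD8 siRNA libraries. Every BRD8 siRNA library lay below every control. The mean went from 276 ± 47.8 to 117 ± 15.9 (SD, n = 3 each), which was 2.35-fold lower, with a log2 fold change of -1.22 (SE 0.158, 95% interval -1.58 to -0.87, limma adjusted p = 0.00152) and of -1.34 without control library 2. Each value rests on 104 to 323 reads. Fewer cells that make a transcript and less of it per cell cannot be told apart in such bulk libraries.

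B cell markers other than CD22 were near 0 in every library. Of 7 B cell markers only CD22 had a mean of at least 10 normalized counts, at 33.5, with 20.9 to 44.6 in single libraries. MS4A1 and BLK had no read. The summed level of the 7 was 22.7 to 37.6 in control libraries and 40.6 to 55.9 in BRD8 siRNA libraries, so it did not fall with CR2. This sum was mostly CD22 and so rests largely on 1 gene. Of the 7 other leukocyte markers 4 reached that mean, with sums of 17995 to 19861 and 18728 to 19247 that were mostly LYZ, which airway epithelium also makes. Of 10 stromal and endothelial markers 2 reached it, with sums of 221 to 231 and 226 to 241. Of these 2 lists, CD68 and LUM rose. The part of other cell types in the results was not tested.

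The stretch with the single motif match before the start of CR2 is shown because CR2 is the member that fell.
CR2, E-box match: gctcagaactagCACGTGtgccggacacta
It is chr1:207454271-207454300 on the plus strand of GRCh38.p14, bases -57 to -28 from the RefSeq start. In GENCODE v29 it overlaps annotated untranslated regions of 3 CR2 transcripts. The E-box, searched as CACGTG, is in 7.26% of windows. RefSeq windows were used for 6 of the 9 members, 11 windows in all. No window was used for C3, C1S and CLU, so these genes were not searched for motifs. Those of CD59 and C1R held GAS and C/EBP matches (TTNNGNAA, in 36.8% of windows), and CD59 also AP-1 matches (TGANTCA, in 7.71%). None of the searched motifs was found in the windows of CD46 and CD55.

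In all, 2 of the 9 genes were called higher and 1 lower, beside 10.1% called higher, 8.93% called lower and 19.0% called in either direction over the 15354 genes tested. The 2 groups of libraries did not overlap in 6 of the 9, beside 36.8% of all genes tested. The median log2 fold change of the 9 genes was 0.11 and that over all genes tested was -0.01. Since the genes were chosen on this contrast, nothing is read from these counts. Among the control libraries the coefficient of variation was lowest for CD59, C3 and CD55, at 3.79%, 5.02% and 5.16%, and highest for C1R at 28.3%. Among the BRD8 siRNA libraries it was lowest for CD59 at 1.71%, C1S at 1.76% and C3 at 2.29%, and highest for C1R at 17.5%.

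**Figure D2:**
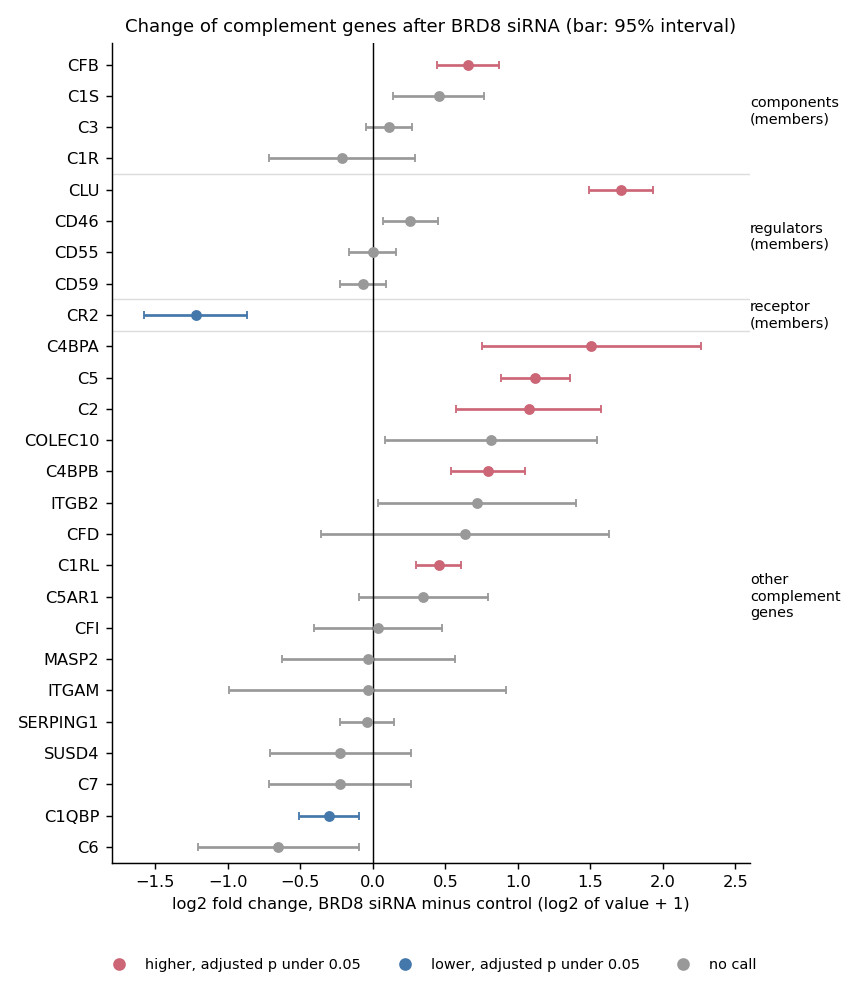
Log2 fold change (BRD8 siRNA minus control, horizontal axis) of the 9 genes and of 17 other complement genes, with bars for the 95% interval of the limma fit over 6 libraries. CLU at 1.71 and C4BPA at 1.51 lie highest and CR2 at -1.22 lies lowest, and the widest intervals belong to genes with few reads.

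Levels per kilobase of exon were used to order the 9 genes within the control libraries, a comparison that does not involve the siRNA contrast. CD59 was highest at 7078 ± 268 normalized counts per kilobase (SD, n = 3), rank 170 of 14828 genes with a known length. CD46 followed at 2885 ± 229, CFB at 2261 ± 292, C3 at 2047 ± 103, CD55 at 988 ± 50.9 and CLU at 667 ± 55.9. The other members were far lower, with CR2 at 56.6 ± 9.78, C1R at 23.6 ± 6.67 and C1S at 15.5 ± 2.26. The library ranges of neighbours in this order did not overlap, except those of CFB with C3 and of C1R with C1S. CD46 and CFB were barely apart, with a lowest control of 2625 for CD46 and a highest of 2590 for CFB, both in control library 2. With the length of the longest transcript in place of all exon bases, CFB and C3 came before CD46, so the order of these 3 genes rests on the gene model.

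In the BRD8 siRNA libraries the level per kilobase of CFB was 3545 ± 82.6 and that of CD46 3447 ± 197, with overlapping ranges. CLU at 2188 ± 237 lay above CD55 at 987 ± 37.4 in every library, and its range overlapped that of C3 at 2212 ± 50.7. The ratio of CLU to C3 per kilobase went from 0.326 ± 0.0185 to 0.988 ± 0.0863. The ratio of CFB to C3 went from 1.10 ± 0.101 to 1.60 ± 0.0400, and no library of one group reached the other group's range. The ratio of C1S to C1R was 0.582, 0.596 and 0.864 in control libraries and 0.918, 1.01 and 1.30 in BRD8 siRNA libraries. Every BRD8 siRNA library thus had a higher C1S to C1R ratio than every control, although neither gene was called. CD46 to CD55 was 2.93 ± 0.338 and 3.49 ± 0.196. These ratios are a description of the same 6 libraries, with no test. All levels and ratios here use all exon bases, 6616 for CLU, 8328 for C3, 4997 for CFB and 8708 for CD46. The longest transcripts have 3080, 5263, 2862 and 7826 bases. How near CLU lay to C3, and CFB to CD46, thus rests on the gene model.

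**Figure D3:**
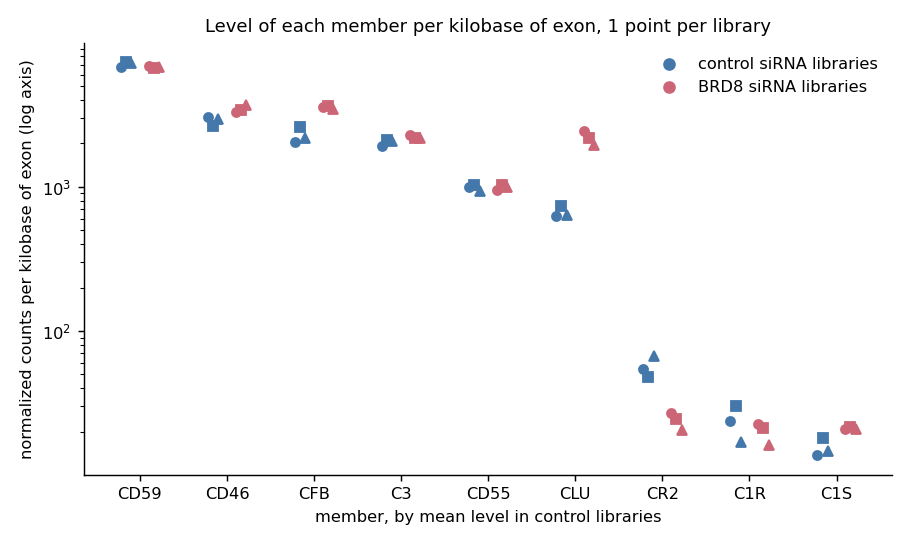
Normalized counts per kilobase of exon (vertical log axis) for each gene in the 3 control and the 3 BRD8 siRNA libraries, ordered by the control mean; circles, squares and triangles are libraries 1, 2 and 3. CD59 lies highest in all 6 libraries, CLU moves from below CD55 to above it, and CR2, C1R and C1S lie far below the rest.

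Beyond the 9 genes, 52 further genes of the complement system were examined. Their list was written from knowledge of the pathway, but with earlier results of these data known. Of these 19 were tested, 7 rose and 1 fell, beside 10.1% and 8.93% of all genes tested. Their median log2 fold change was 0.45, beside -0.01 over all genes tested. Because of how the list was made, these counts and this median describe the genes and are no independent evidence. In the classical pathway and its inhibitors, C2, which supplies the catalytic subunit of the C3-cleaving enzyme, was at 18.0, 14.0 and 14.2 in control libraries and at 32.2, 35.1 and 32.9 in BRD8 siRNA libraries (log2 fold change 1.07, limma adjusted p = 0.0111). Between 13 and 37 reads stand behind each of these values. C2 shares 32.9% of its exon bases with the readthrough transcript that joins it to CFB, and 23 bases with CFB itself. Part of its reads could belong to these. C1RL, a C1r-like protease, went from 1575 ± 34.2 to 2157 ± 40.8 (log2 fold change 0.45, limma adjusted p = 0.00278). C4BPA and C4BPB, the chains of the C4b-binding protein that restrains the classical pathway, rose by 1.51 and 0.79 on the log2 scale (limma adjusted p = 0.0149 and 0.00216). C4BPB was the more abundant chain in reads, at 288 ± 34.0 and 499 ± 29.8, while C4BPA was at 13.6 ± 6.54 and 38.2 ± 5.40.

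C5, the component whose cleavage opens the terminal pathway, was at 1134, 878 and 1068 in control libraries and at 2282, 2082 and 2306 in BRD8 siRNA libraries. Its groups were far apart, with a log2 fold change of 1.12 (SE 0.105, limma adjusted p = 4.00e-04). C1QBP, a mitochondrial protein also described as a receptor for C1q, fell from 2693 ± 296 to 2174 ± 70.9 (log2 fold change -0.30, limma adjusted p = 0.0494). Without BRD8 siRNA library 2 the number that rose was 4, with C2 (0.0514) and C4BPA (0.0504) among those no longer called. C1QBP was not called without control library 3 or without any single BRD8 siRNA library. C4BPA was also not called without BRD8 siRNA library 1 (0.0585). Over the alternative fits the adjusted p ranged from 0.00816 to 0.0514 for C2, from 0.00457 to 0.0585 for C4BPA and from 0.00118 to 0.171 for C1QBP.

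The most abundant of the 11 genes that were tested and not called was SERPING1, the C1 inhibitor, at 747 ± 42.6 and 726 ± 23.3 (95% interval of the log2 fold change -0.23 to 0.14). The C5a receptor C5AR1 was at 80.5 ± 15.4 and 103 ± 21.4, factor I (CFI) at 82.9 ± 19.4 and 83.5 ± 6.95, and the lectin pathway protease MASP2 at 50.5 ± 16.6 and 47.7 ± 6.47. Of the 33 genes that were not tested, 17 had reads but a mean under 10 normalized counts. The other 16 had no read in any library, among them C1QA, C1QB and C1QC, which form the recognition protein of the C1 complex, and C4A and C4B. C4A and C4B are near-identical copies, so their counts of 0 are uncertain. C1R and C1S were thus measured in libraries without a read for the C1q chains.

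CD55 and CD59 are held in the membrane by a glycosylphosphatidylinositol (GPI) anchor, whose assembly and remodelling genes were examined beside them. Of 30 such genes 29 were tested, and 5 fell, beside 8.93% of all genes tested. None was called higher by limma, edgeR or DESeq2, and 2 had a higher level at an unadjusted limma p under 0.05. PIGC and PIGA encode subunits of the enzyme that starts the anchor. PIGC fell from 782 ± 43.1 to 491 ± 28.9 (log2 fold change -0.67, limma adjusted p = 0.00158) and PIGA from 1816 ± 122 to 1482 ± 59.7 (-0.29, limma adjusted p = 0.0351). PIGZ, which adds a side mannose, fell from 213 ± 13.0 to 142 ± 9.55 (-0.59, limma adjusted p = 0.00822). PIGT, a subunit of the transamidase that attaches the anchor, fell from 4662 ± 424 to 3412 ± 232 (-0.45, limma adjusted p = 0.00968).

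PGAP1, which removes an acyl chain from the attached anchor, was at 561, 370 and 570 in control libraries and at 241, 258 and 299 in BRD8 siRNA libraries. It fell by 0.89 on the log2 scale (limma adjusted p = 0.00861), and its groups did not overlap. The call of PIGA was lost without control library 1 (0.110) or 3 (0.150) and without any single BRD8 siRNA library (0.0750 to 0.120), and its adjusted p was as low as 0.00393 in another fit. Without control library 2, 3 genes of the list, PGAP3, DPM2 and MPDU1, were called higher. The most abundant genes of the list that were not called were PGAP3 at 21287 ± 3087 and 25396 ± 1401, DPM1 at 3660 ± 170 and 3801 ± 91.8, GPAA1 at 3654 ± 447 and 3763 ± 446, and PIGO at 2030 ± 121 and 2110 ± 95.8. The median of the list was 0.03, beside -0.01 over all genes tested. The GPI list was also made with earlier results of these data known, so its counts are no independent evidence.

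**Figure D4:**
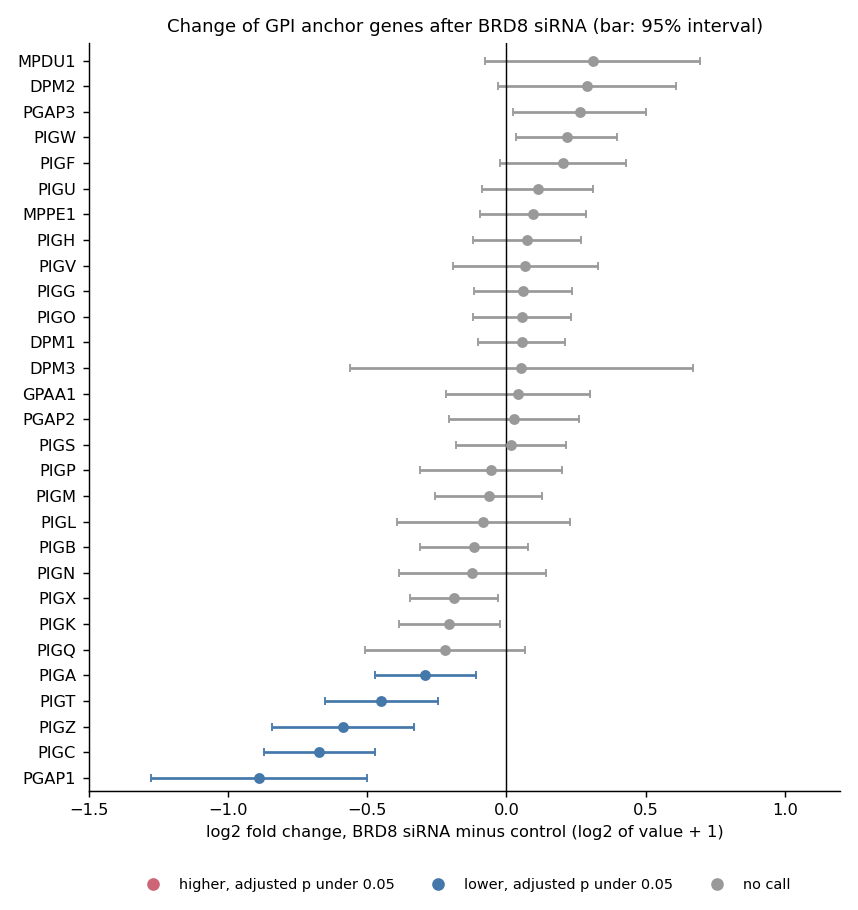
Log2 fold change (BRD8 siRNA minus control, horizontal axis) of the 29 tested genes of GPI anchor assembly and remodelling, with bars for the 95% interval of the limma fit over 6 libraries. The 5 genes that fell, PIGA, PIGT, PIGZ, PIGC and PGAP1, lie between -0.29 and -0.89, and no gene is called higher.

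Several members lie beside each other in the genome, and the nearest tested gene on each side was examined for each. On chromosome 1 the order was C4BPA, CD55, CR2 and CD46. CR2 fell, its neighbours CD55 (log2 fold change -0.00) and CD46 (0.26) were not called, and C4BPA on the other side of CD55 rose. On chromosome 6, CFB lies between C2 and NELFE, a subunit of the negative elongation factor (log2 fold change 0.02, limma adjusted p = 0.910). C2 rose, but part of its reads could belong to the readthrough transcript that joins it to CFB. On chromosome 12, LPCAT3 (0.01, limma adjusted p = 0.950), C1S, C1R and C1RL follow each other, and C1RL was called.

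CLU lies between EPHX2, which encodes soluble epoxide hydrolase (log2 fold change 0.33, limma adjusted p = 0.452), and SCARA3, a scavenger receptor gene. SCARA3 was at 91.0, 106 and 146 in control libraries and at 586, 474 and 514 in BRD8 siRNA libraries. It rose by 2.21 on the log2 scale (SE 0.174, limma adjusted p = 1.69e-04), more than CLU itself. The neighbours of C3 were TNFSF14 (-0.22, limma adjusted p = 0.502) and GPR108 (0.14, 0.450), those of CD59 were C11orf91 (0.04, 0.902) and FBXO3 (-0.16, 0.176), and CD46 was followed by the microRNA gene MIR29C (-0.04, 0.953). None of these was called.

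The genes with the pattern most like that of CLU over the 6 libraries, by Pearson's r of log2(value + 1) among 13061 genes with a mean of at least 50, were the cytochrome P450 gene CYP2C8 (r = 0.9996), the sialyltransferase gene ST6GALNAC1 (0.9992) and the annexin gene ANXA13 (0.9991). ANXA13 went from 687 ± 96.1 to 3342 ± 370, CYP2C8 from 32.2 ± 3.18 to 108 ± 12.5 and ST6GALNAC1 from 1794 ± 131 to 4096 ± 239. Like CLU, all 3 were highest in BRD8 siRNA library 1 and lowest in BRD8 siRNA library 3 within their group. They were picked for likeness over these same libraries, so this shared order is no further evidence. For CR2 the closest were TULP3 (r = 0.9994), NFXL1 (0.9972) and the fatty acid elongase gene ELOVL6 (0.9954), which moved far less than CR2, with log2 fold changes of -0.30, -0.32 and -0.32. The libraries form 2 separate groups, so r carries the difference between the groups, and 696 genes exceeded an r of 0.95 with CLU and 350 with CR2. No test was made of these correlations.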

How the data were processed

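RNA-seq was made from total RNA of 6 Calu3 samples, 3 per siRNA, grouped by their titles. The extraction protocol in the labels speaks of HBE cells, and the titles and the cell line label were followed. The TruSeq v2 kit named there does not mark strand. STAR 2.6, featureCounts 1.6.3, DESeq2 1.22.1 and the build hg19 stand in the submitters' processing notes, while annotation, strand setting and filters were not given in the sources used. The deposited values are a normalized signal: the authors scaled read counts per gene by library size factors. The authors' log2 fold changes with standard errors and adjusted p-values, also deposited, served as an alternative.

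Reads were recovered from the deposited normalized counts by the value of 1 read in each library, with 100% of values whole within 0.01. The floor of 3 reads covers counting error only. The test was limma 3.58.1 with a variance trend (R 4.3.3) on log2(normalized count + 1), over genes whose mean across all libraries was 10 or more, with treatment alone in the model. This scale understates the change of low genes. Alternatives were a pseudocount of 4, a minimum mean of 50, no filter, quantile normalization, edgeR 4.0.16 and DESeq2 1.42.0 on the recovered reads, a replicate block, removal of a trend with length and GC content (mgcv 1.9.3), and each library left out.

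Exon lengths, overlaps and gene order came from GENCODE v29, on another build than the data, and 23700 symbols matched it directly, 780 through other symbols and 1884 not. Exon bases are shared with genes on the opposite strand by BRD8, C1RL, C2, C4A, C4B, C1QBP, MASP2, ITGB2, PIGF, PIGO, PIGT, DPM2, MPDU1 and PGAP3, and with genes on the same strand by CFB, C1R, C1S, CD59, CLU, C1RL, C2, C4A, CFI and C1QBP, and reads there cannot be told apart. Named are the 9 members, BRD8, in the complement and GPI lists each gene called (up to 8) and the 4 most abundant that were not, the nearest tested gene on each side of each member, and the 3 genes most like CLU and CR2. Genes outside this rule, such as those with no reads, were chosen after their values were seen. Some genes of the lists are counted but not reported here by name. The members and lists were chosen with earlier results of these data known.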

Additional observations from a re-analysis of the deposited data

How the results depend on the processing

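Under all 15 alternatives CLU and CFB kept their rise and CR2 its fall, with log2 fold changes of 1.63 to 1.79, 0.58 to 0.76 and -1.34 to -1.09. Among these, the DESeq2 fit and the authors' deposited comparison are nearly the same, with 1.713 for CLU in both. Leaving out 1 library gave 2 to 3 members called higher and 1 lower. The number called higher was 4 with edgeR, with the replicate block and after removal of the length and GC trend, since C1S and CD46 then passed. CD59 changed sign to 0.0118 (adjusted p = 0.935) after that removal, and the cause was not tested. Of all genes, 2920 were called, 4509 after that removal, and 1361 (without control library 3) to 5226 (without control library 2) when 1 library was left out. The number was 1870 without control library 1 and 1568 without BRD8 siRNA library 2 or 3. Of the other complement genes, 4 were called higher at a minimum mean of 50, where fewer genes were tested, and 4 to 7 when 1 library was left out. None was called lower with no filter, with quantile normalization or with edgeR, and 0 to 1 when 1 library was left out. Of the GPI genes, 1 was called higher with the replicate block (PGAP3) and 1 after removal of the length and GC trend (PIGF), and 0 to 3 when 1 library was left out, with 4 to 6 lower. PIGT was not called after that removal (0.0613). C1QBP lost its call in 7 of 15 alternatives.

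Whether the replicate numbers pair the libraries cannot be settled from 3 libraries per group, and the main fit did not pair them. Same-numbered libraries deviated together with r of -0.0845, 0.335 and 0.155. The value of 0.335, for the libraries numbered 2, was the highest of any control with any BRD8 siRNA library. Not every library correlated best with its own number. The replicate block called 3901 genes. The authors' deposited table has 3233 genes under an adjusted p of 0.05, with 3 members higher and 1 lower. Differences of genes with few reads or a wide spread between libraries could be detected only if large. For C1R the SE was 0.222, beside 0.138 for C1S at a similar number of reads.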

Other observations

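Some complement genes that were tested and not called had means that differed by over 1.5-fold at few reads, and they were chosen here after their values were seen. C6, a part of the membrane attack complex, was at 33.2, 32.4 and 23.4 in control libraries and at 20.8, 19.0 and 15.5 in BRD8 siRNA libraries, with groups that did not overlap (limma adjusted p = 0.0983). COLEC10, a collectin of the lectin pathway, was at 7.58, 8.64 and 11.2 against 16.6, 12.3 and 22.2 (limma adjusted p = 0.114). ITGB2, the shared beta chain of the complement receptors of leukocytes, was at 28.4, 18.4 and 17.3 against 23.9, 43.6 and 40.6, with overlapping groups (limma adjusted p = 0.134). CFD, the protease that cleaves factor B, was at 25.6, 18.4 and 19.3 against 14.6, 49.3 and 49.3 (limma adjusted p = 0.352), and the lowest and highest of its values both belong to BRD8 siRNA libraries.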
